A study of Mus musculus with 4 samples.

Results

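Islands of acetylated lysine 16 of histone H4 (H4K16ac) near the distal ends of the mouse autosomes were examined in liver. An island is a stretch of the genome in which reads from chromatin immunoprecipitation (ChIP) exceeded reads from input chromatin, which is sequenced without immunoprecipitation. An island was taken as distal when its end lay within 5 Mb of the largest island end on its chromosome over both lists, for chromosomes 1 to 19. By this rule 1456 of the 28377 islands of the Sirt1 knockout (MT) mouse and 1401 of the 26227 islands of the wild type (WT) mouse were distal, 2857 of 54604 in all. The 19 distal windows span 95 Mb, and the rest of the autosomes, from the first island to the start of the distal window, spans 2294 Mb.

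Each genotype was represented by 1 mouse, with 1 ChIP and 1 input library each, so 4 libraries were compared. The MT mouse was SIRT1 KO, with a targeted deletion in Sirt1 in the whole body from conception, and the WT mouse carried no such deletion. The study states that most animals of this mutant line die before birth, so an adult MT mouse is a survivor. Both animals were 3 months old, of the mixed 129/FVB/Black Swiss background, male by the study's methods, kept under a 12-h light regime and killed between 9 AM and 11 AM. The ChIP used an anti-H4K16ac antibody from Santa Cruz on liver that had been snap frozen and powdered, which mixes hepatocytes with the other cells of the organ. No expression was measured in these libraries, so tissue identity and the loss of Sirt1 could not be checked. With 1 mouse per genotype, a difference between MT and WT cannot be told apart from a difference between these animals or libraries, and no p-value is given. All intervals are 95% intervals that cover counting error only and treat islands as independent, which neighbouring islands are not.

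Acetylation of H4K16 removes a positive charge from the histone tail and loosens the packing of nucleosomes, and the mark is found widely over active chromatin. In budding yeast the deacetylase Sir2 removes it from silent chromatin next to telomeres. SIRT1 is the closest mammalian relative of Sir2 and also deacetylates H4K16. Mouse autosomes carry the centromere close to one end, where coordinates begin, so the end with the largest coordinates is the one away from the centromere. The windows are counted from the last island, not from the telomere, because the last island is the outermost position the lists hold. Coordinates are those of build mm8 and are counted from 1.

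Islands were denser in the distal windows than in the rest of the autosomes in both mice. In MT there were 15.3 islands per Mb in the distal windows and 11.7 in the rest, a ratio of 1.31 (interval 1.24 to 1.38). In WT there were 14.7 and 10.8 islands per Mb, a ratio of 1.37 (1.30 to 1.45). The islands covered 5.02% of the distal windows against 3.59% of the rest in MT, and 4.17% against 2.86% in WT. The ratio of covered shares was 1.40 (1.31 to 1.49) in MT and 1.46 (1.36 to 1.56) in WT. Windows of the same size at the other end of the autosomes, counted from the first island, held 12.4 islands per Mb in MT and 11.6 in WT. The distal windows were thus 1.23 times (1.14 to 1.33) as dense as these centromere-side windows in MT and 1.27 times (1.18 to 1.38) in WT.

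The excess was smaller against windows elsewhere that also end at an island. Each distal window ends at an island by construction, and islands occur in clusters. When 5-Mb windows ending at each autosomal island outside the distal windows served as the reference, and the anchoring island was left out, the distal windows held 15.2 islands per Mb against 14.4 in MT and 14.7 against 13.2 in WT. These ratios were 1.06 and 1.11. This reference weights dense stretches by their number of islands and was added after the first densities had been seen. The centromere-side windows also start at an island, and against them the ratios were 1.23 in MT and 1.27 in WT. The part of the island at the window's end in the excess was not tested.

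Within the distal windows the densest Mb was the outermost one. The outermost 1 Mb held 443 MT and 393 WT islands, or 23.3 and 20.7 per Mb, which are 30.4% and 28.1% of all distal islands. The next Mb held 260 MT and 250 WT islands, and between 1 and 5 Mb the density stayed between 11.8 and 15.0 per Mb in both lists. Density did not fall off steadily behind the window: it was 16.7 per Mb in MT and 16.1 in WT between 6 and 7 Mb, and 7.58 and 7.37 per Mb between 9 and 10 Mb. Further in, it went from 10.2 to 19.7 per Mb in MT and from 10.5 to 18.8 in WT at 14 Mb, a step of like size to that at the end. Within the last Mb, counted in steps of 250 kb from the end and with the last island left out, MT had 30.7, 26.1, 20 and 13.7 islands per Mb. The same steps behind any island of the rest had 30.3, 19.6, 16.6 and 15.4. In WT the distal steps had 30.1, 20.6, 16.2 and 13.9 islands per Mb, against 27.7, 17.8, 15.4 and 14.1 behind other islands. The ratio of the distal steps to the reference was 0.886 to 1.33 in MT, WT gave 0.984 to 1.16, and the step from 250 to 500 kb was the highest in both.

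**Figure D1:**
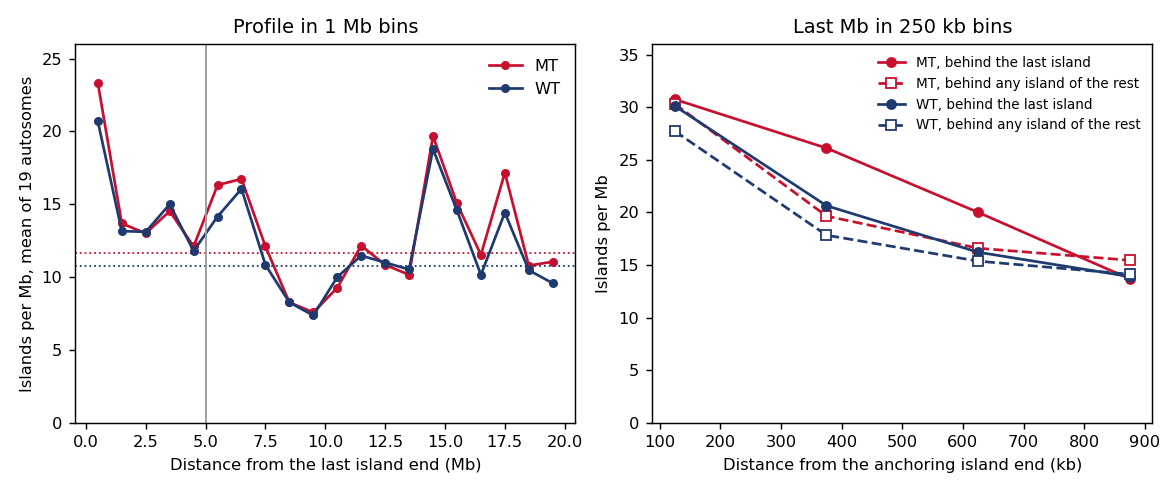
Left, islands per Mb (mean of 19 autosomes) in 1 Mb bins by distance in Mb from the last island end, for MT (red) and WT (blue), with the density of the rest as dotted lines and the window limit as a grey line. Right, islands per Mb in the last Mb in 250 kb bins, with the anchoring island left out, behind the last island (filled circles, solid) and behind any island of the rest (open squares, dashed). The fall from 30.7 to 13.7 islands per Mb in MT had a counterpart from 30.3 to 15.4 behind other islands.

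The chromosomes differed far more from each other than the distal windows differed from the rest. The distal window was denser than the rest of its own chromosome on 12 of 19 chromosomes in both lists, and sparser in both lists on 6, which were chromosomes 2, 3, 12, 13, 17 and 18. On chromosome 19 the ratio was 0.979 in MT and 1.02 in WT. Over the 19 chromosomes the ratio of the distal to the rest density ran from 0.0496 to 2.38 in MT, with a median of 1.59, and from 0.0795 to 2.55 in WT, with a median of 1.53.

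The densest distal windows were those of chromosomes 11, 6 and 15 when both lists were counted together. Chromosome 11 had 143 MT and 139 WT islands, chromosome 6 had 124 and 141, and chromosome 15 had 119 and 125. In MT alone chromosome 10, with 129 islands, came between 11 and 6, while in WT it had 98. These 3 windows held 26.5% of the distal MT islands and 28.9% of the distal WT islands. The distal window of chromosome 6 was the densest of the 29 windows of 5 Mb on that chromosome in both mice. Chromosome 11 is dense throughout, with 16.2 islands per Mb outside the distal window in MT, and there the distal window was second of 23 in both mice.

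The sparsest distal windows were those of chromosomes 18, 17 and 3. Chromosome 18 had 3 MT and 5 WT islands, chromosome 17 had 6 and 5, and chromosome 3 had 13 and 18. Together they held 1.51% of the distal MT islands and 1.999% of the distal WT islands. The window of chromosome 17 ranked last of 18 in both mice, although the rest of that chromosome had 13.1 islands per Mb in MT and 12.6 in WT. Empty stretches made up most of these windows: the longest run without an island was 2902 kb on chromosome 17 in both mice, and 3532 kb in MT and 3311 kb in WT on chromosome 18. The longest in the distal windows was on chromosome 13, at 4199 kb in MT and 4207 kb in WT, where the islands sat at the 2 edges of the window. On chromosome 11 no run without an island exceeded 384 kb in MT and 479 kb in WT.

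**Figure D2:**
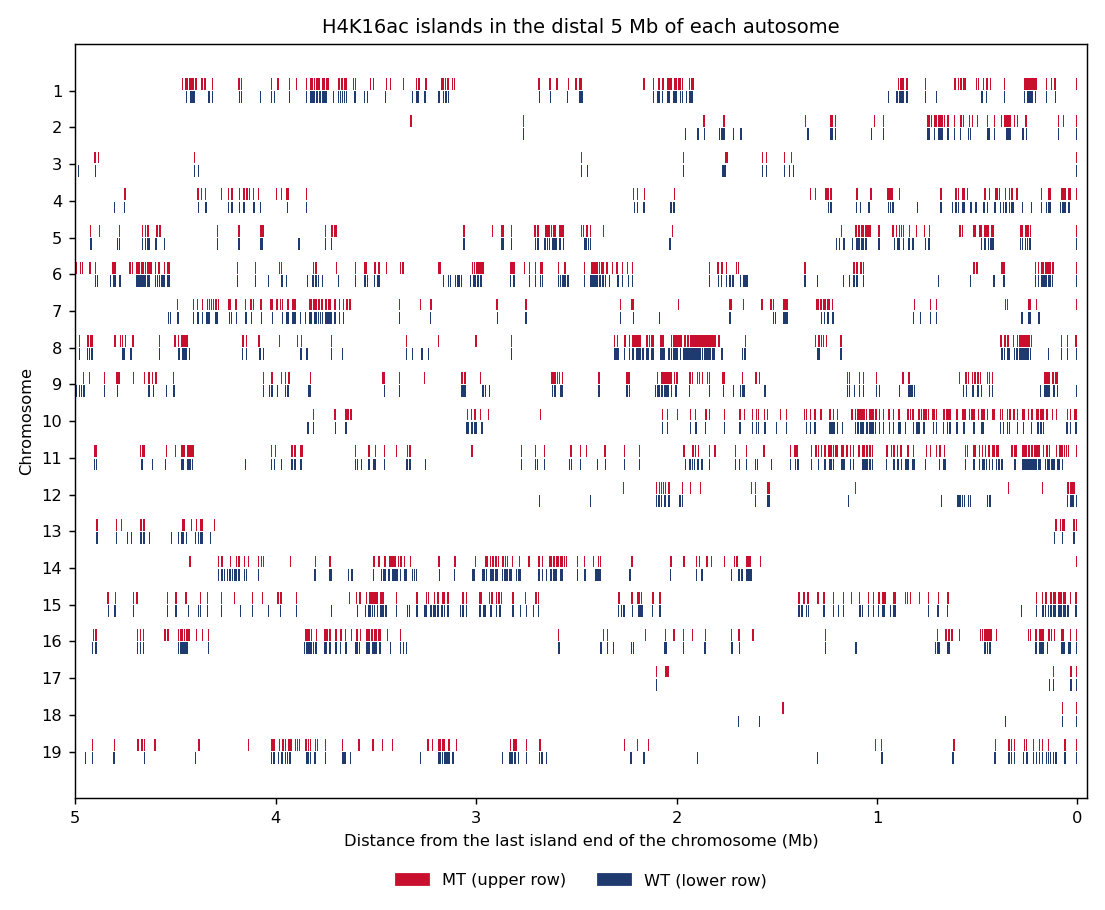
Islands in the distal 5 Mb of the 19 autosomes (rows), by distance in Mb from the last island end of the chromosome (0, at the right), with MT islands in red above and WT islands in blue below. Short islands are drawn 6 kb wide so that they can be seen. The rows of chromosomes 6, 11 and 15 are filled in both mice, those of chromosomes 17 and 18 hold 3 to 6 islands per mouse, and the row of chromosome 13 is empty for 4199 kb in MT.

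**Figure D3:**
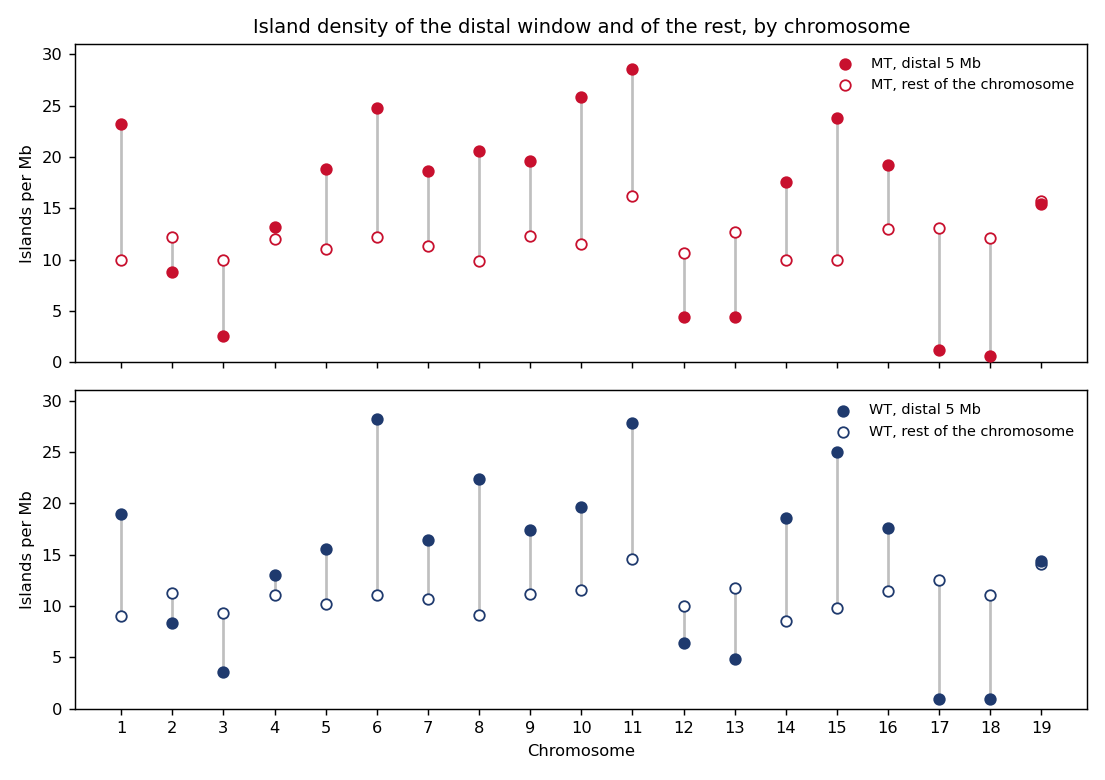
Islands per Mb in the distal 5 Mb (filled) and in the rest of the same chromosome (open) for each autosome, MT above and WT below, with grey lines joining the values of a chromosome. The distal value is the higher one on 12 chromosomes in MT and 13 in WT, and it falls to 0.6 per Mb on chromosome 18 in MT.

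The same windows were dense in both animals. Across the 19 chromosomes the distal MT and WT island counts had a Pearson r of 0.97 and a Spearman rho of 0.96, while the distal count and the density of the rest of the chromosome had a rho of -0.02 in MT and -0.18 in WT. These coefficients describe 19 windows whose islands came from the same libraries, and they carry no test. In the last 1 Mb the order was different: chromosome 10 led in MT with 70 islands against 46 in WT, followed in MT by chromosome 11 with 60 against 53. Chromosome 14 had 1 MT and 0 WT islands there, although its whole distal window held 88 and 93.

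No annotation of build mm8 was used here, so no island was assigned to a gene. The gene order of RefSeq on build GRCm38.p6 gives only the neighbourhood. At the distal end of chromosome 11 the outermost protein-coding genes include Tbcd, a tubulin folding cofactor, and Metrnl, which encodes a secreted hormone-like protein. At that of chromosome 15 they include Nckap1l, a subunit of the actin-regulating WAVE complex in blood cells, and the phosphodiesterase gene Pde1b. At the sparse end of chromosome 3 they include Rpe65, the retinoid isomerase of the retinal pigment epithelium, and Wls, which carries Wnt proteins to the cell surface. Whether any distal island lies in one of these genes was not tested.

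The last islands of the chromosomes had a shorter median length and a higher median fold than all distal islands. All distal islands had median lengths of 2600 bp in MT and 2200 bp in WT, and median folds of 1.95 and 2.01. The 19 last islands of the MT list were 200 to 3800 bp long (median 2000 bp), with 24 to 134 ChIP reads and a fold over input of 1.47 to 4.54 (median 2.30). The 19 last islands of the WT list were 200 to 8800 bp long (median 1400 bp), with 22 to 271 ChIP reads and a fold of 1.47 to 9.998 (median 2.37). Of these, 11 MT and 13 WT islands overlapped an island of the other mouse. The last MT island reached to within 98.6 kb of the window's end on all 19 chromosomes, and the last WT island reached to within 100 kb on 16. The exceptions in WT were chromosome 1 at 108 kb, chromosome 7 at 188 kb and chromosome 14 at 1626 kb. On chromosome 14 the window therefore hangs on a single MT island, chr14:123694801-123696800, with 60 ChIP and 13 input reads and a fold of 4.37.

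Distal islands were slightly longer than the others. The median length was 2600 bp (2400 to 2600) in MT against 2400 bp in the rest, and 2200 bp (2200 to 2400) in WT against 2200 bp. The mean was 3273 bp against 3078 bp in MT and 2827 bp against 2653 bp in WT. Just outside the windows, the median length was 2600 bp in MT and 2400 bp in WT between 5 and 6 Mb. Between 6 and 7 Mb it was 2600 and 2000 bp. Islands of at least 5 kb made up 16.6% (14.8 to 18.6) of the distal MT islands against 14.2% of the rest, and 12.5% (10.9 to 14.3) of the distal WT islands against 9.62%. Islands of at least 10 kb numbered 38 in MT, or 2.61% (1.91 to 3.56) against 1.87% of the rest. In WT they numbered 21, or 1.499% (0.982 to 2.28) against 1.04%, and this interval contains the value of the rest. Lengths come in steps of 200 bp, the counting window of the island caller.

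Of the 3 longest distal islands of each list, all 3 of MT and 2 of WT lay on chromosome 8. The longest of the MT list, chr8:129700001-129739400, spanned 39400 bp with 1796 ChIP and 687 input reads, a fold of 2.47. It was overlapped by 7 WT islands, chr8:129696601-129739400, that began ahead of it and covered 38200 bp, with 1870 ChIP and 623 input reads and a fold of 2.73. The covered lengths and reads of the mice were thus close, while the lists held 1 island in MT and 7 in WT. The second longest of the MT list, chr8:127149201-127174800 (25600 bp, 956 ChIP reads, fold 1.78), met 2 WT islands that also covered 25600 bp, with 1064 ChIP reads and a fold of 2.01. The third, chr8:129616401-129634200, was 17800 bp long with 676 ChIP reads, and 3 WT islands with 524 ChIP reads covered 10600 bp of it.

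In WT the longest distal island was chr8:127156401-127175800 at 19400 bp, with 776 ChIP reads and a fold of 1.99, which lies over the second longest of MT. The next was chr11:121322801-121341800 at 19000 bp with 682 ChIP reads and a fold of 2.11, where MT had 4 islands with 879 ChIP reads over 23600 bp. The third was chr8:129756601-129775000 at 18400 bp with 834 ChIP reads and a fold of 2.54, where MT had 2 islands with 843 ChIP reads over 18000 bp. Of the 6 longest islands, 3 per list, each overlapped at least 1 island of the other mouse.

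Enrichment over input was slightly lower in distal islands than in the rest. The fold divides the ChIP reads of an island by its input reads after correction for the sizes of the libraries. Its median was 1.95 (1.93 to 1.99) in distal MT islands against 2.02 (2.01 to 2.03) in the rest, and 2.01 (1.96 to 2.03) in distal WT islands against 2.08 (2.07 to 2.09). Pooled over all reads in islands, the fold was 2.02 against 2.05 in MT and 2.03 against 2.09 in WT. The lower fold was not particular to the windows in MT, where the 1 Mb bins from 5 to 10 Mb had medians of 1.89 to 1.97. In WT these bins had medians of 1.9995 to 2.12. Both terms of the ratio moved: distal islands had 34.4 ChIP reads per kb against 33.3 in MT and 33.3 against 32.4 in WT, ratios of 1.04 and 1.029. The input inside islands moved more, with 16.1 reads per kb against 15.4 in MT and 14.9 against 14.1 in WT, ratios of 1.05 and 1.06. The part of the input in the lower fold was not tested.

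The lower fold was spread over the chromosomes but was not found on all. Among the 16 chromosomes with at least 20 distal islands in a list, the distal median fold lay below that of the rest on 11 in MT and on 14 in WT. Among these the lowest distal medians were on chromosome 14 in MT, at 1.82, and on chromosome 7 in WT, at 1.86. Chromosomes 10 and 13 went the other way in both mice, chromosome 10 with 2.11 against 2.05 in MT and 2.14 against 2.10 in WT. The distal medians of the 3 sparsest windows were 2.71 on chromosome 18, 2.07 on chromosome 17 and 2.29 on chromosome 3 in MT, and 3.11, 2.48 and 2.56 in WT. These medians rest on 3 to 18 islands, and in MT that of chromosome 17 lay below those of the dense windows of chromosomes 10 and 15. Across the 19 windows the island count and the median fold had a Spearman rho of -0.08 in MT and -0.38 in WT. Across the 5-Mb windows of the rest with at least 3 islands, the rho was -0.20 over 453 windows in MT and -0.25 over 450 in WT. Sparser windows of the rest thus tended to higher medians, a tendency that was weaker in the distal windows of MT.

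Strongly enriched islands were not more frequent at the distal ends. A fold of at least 4 was reached by 38 distal MT islands (2.61%, 1.91 to 3.56) and by 47 distal WT islands (3.35%, 2.53 to 4.43). Over all autosomal islands the share was 3.18% in MT and 4.06% in WT, which lies inside both intervals. Weak islands with a fold under 1.5 made up 6.32% (5.18 to 7.69) of the distal MT islands against 4.84% of the rest, and 4.85% (3.85 to 6.11) of the distal WT islands against 3.30%.

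**Figure D4:**
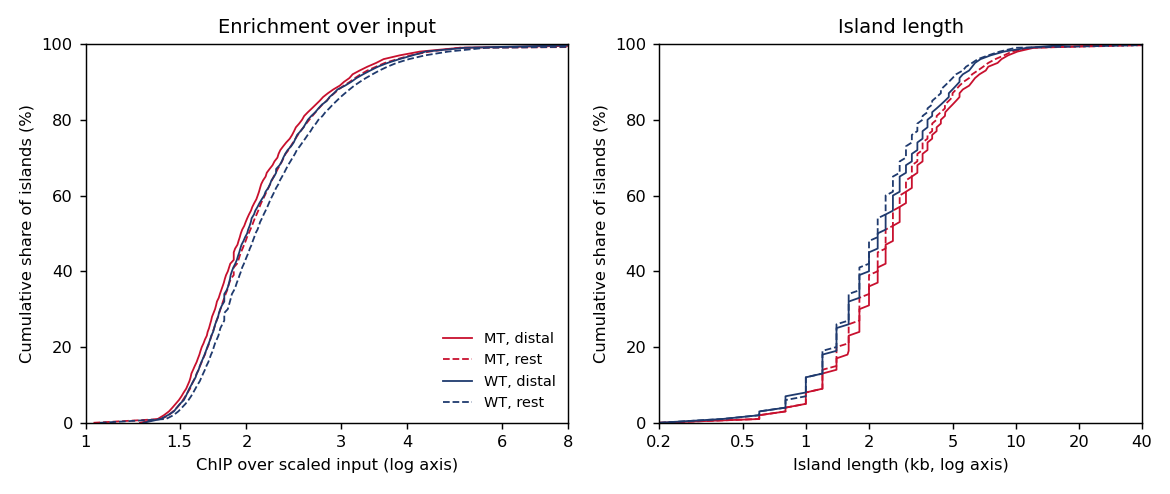
Cumulative share of islands (%) by ChIP over scaled input (left) and by island length in kb (right), both on log axes, for distal islands (solid) and the rest of the autosomes (dashed), MT in red and WT in blue; curves join percentiles. The distal curves lie to the left of the rest for the fold, with medians of 1.95 against 2.02 in MT and 2.01 against 2.08 in WT, and to the right for length above the median.

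Single islands with the highest fold, among those with at least 20 input reads, were present in both mice. In MT the highest was chr11:117662201-117665200, with 213 ChIP and 39 input reads and a fold of 5.17, where WT had 104 and 32 reads over 1800 bp and a fold of 2.95. The next was chr15:100131201-100133000, with 97 ChIP and 20 input reads and a fold of 4.59, and WT had an island with identical limits, 87 and 17 reads and a fold of 4.65. The third, chr1:196831601-196834400, had a fold of 4.48 in MT, and the WT island over it, which is the last WT island of chromosome 1, had a fold of 4.02.

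In WT the highest was chr4:154548401-154549800, with 117 ChIP and 21 input reads and a fold of 5.06, where MT had 128 and 36 reads and a fold of 3.37. The others were chr10:127338201-127340000 with a fold of 4.33, against 3.18 in MT, and chr5:151674001-151676800 with a fold of 4.27, also against 3.18 in MT. In 5 of these 6 islands the mouse in which the island was chosen had the higher fold, which the choice favours. The exception was the chromosome 15 island, where both mice gave nearly the same value.

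At the distal ends the MT list exceeded the WT list in covered length, and by less in number of islands, which depended on the islands kept. The count ratio MT over WT was 1.04 (0.965 to 1.12) in the distal windows and 1.08 (1.07 to 1.10) in the rest. The distal count ratio turned to 0.964 (0.866 to 1.07) among islands with a fold of at least 2, and it was 1.18 (1.08 to 1.29) among those with at least 50 ChIP reads. Distal islands covered 4.77 Mb in the MT list against 3.96 Mb in the WT list, a ratio of 1.20 (1.10 to 1.32), against 1.26 (1.23 to 1.29) in the rest. Both distal ratios were lower than those of the rest, and both intervals contain the value of the rest, so no departure of the distal ends was detectable at this number of islands. In the centromere-side windows the ratios were 1.07 for counts and 1.20 for covered length. The depth of the libraries also differed, with MT at 1.09 times WT for input and 1.05 times for ChIP, as estimated from shared regions. The part of depth in the longer MT islands was not tested.

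Between chromosomes the direction varied. Distal islands were more numerous in MT on 11 chromosomes and in WT on 8, whereas outside the distal windows MT had more on all 19, at ratios of 1.004 to 1.16. Covered length was larger in MT on 16 chromosomes and in WT on 3, which were chromosomes 3, 12 and 18. Chromosome 10 was the single one whose interval lay above 1, at 1.32 (1.004 to 1.73). The ratio in the rest of that chromosome was 1.004. These 19 intervals were not adjusted for their number and treat islands as independent, so a single one above 1 can arise by chance. The last Mb of chromosome 10 held 70 MT against 46 WT islands, with 210.8 against 112 kb covered. Between 1 and 5 Mb there were 59 and 52 islands. On chromosome 6 the WT list had more islands, 141 against 124, but the MT islands covered more, 379 kb against 359 kb. On chromosome 12 the ratio was 0.688 (0.381 to 1.22), from 22 and 32 islands.

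The last Mb taken over all chromosomes had a count ratio MT over WT of 1.13 (0.982 to 1.29) and a covered length ratio of 1.32 (1.11 to 1.56). Between 1 and 5 Mb the ratios were 1.005 (0.920 to 1.10) and 1.16 (1.04 to 1.30). The intervals of the inner and outer slices overlap for both measures. Without chromosome 10 the last Mb held 373 MT and 347 WT islands, a ratio of 1.07 (0.926 to 1.25), and the covered length ratio was 1.25 (1.04 to 1.51).

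The share of islands found in both mice was higher at the distal ends in MT, while in WT the interval of the distal share contained the value of the rest. Of the distal islands, 60.6% (58.1 to 63.1) in MT and 66.2% (63.6 to 68.6) in WT overlapped an island of the other list by at least 1 bp, against 56.3% and 64.2% in the rest. An overlap of 1 bp is met more easily where the other list is denser. Distal density was 14.7 per Mb against 10.8 in WT and 15.3 against 11.7 in MT. The part of density in the shares was not tested. Merging both lists gave 1869 distal regions, of which 822 (44.0%) held islands of both mice, against 40.2% in the rest. Overlapping islands were longer and more enriched than those of 1 list. In MT the 883 overlapping islands had a median length of 3000 bp and a median fold of 2.05, against 2200 bp and 1.85 for the 573 found in MT alone. In WT the 927 overlapping islands had 2600 bp and 2.06, against 1800 bp and 1.91 for the 474 found in WT alone.

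In the shared regions the ChIP density of the mice was centred on the same level. The log2 ratio MT over WT of ChIP reads per covered kb, scaled for depth, had a distal median of -0.0060 (-0.030 to 0.023), and the rest had -0.011 (-0.017 to -0.0050). Compared per region instead of per covered kb, so that longer MT islands add reads, the distal median was 0.14 (0.091 to 0.20). The middle 50% of the distal regions lay between -0.20 and 0.19, and 49.4% (46.0 to 52.8) of them were higher in MT. The SD was 0.34, and the SD from counting error, computed for each region, had a median of 0.21. Regions with few reads have a larger counting SD, so these 2 values do not measure a spread beyond counting error. An increase of at least 1.5-fold in MT was seen in 26 distal regions (3.16%), against 2.90% of all autosomal shared regions. A decrease of at least 1.5-fold was seen in 33 (4.01%), against 4.06%. Both shares lie near the background. This ratio is scaled by the input inside shared regions and by the library-size correction that the fold carries. A change of level common to input and ChIP would not be seen. Nor would an even rise of H4K16ac over the whole genome in 1 mouse, so the equal centre does not speak to such a rise.

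The shapes of shared regions differed in the same way as in the rest. Among the 697 distal shared regions with 1 island of each mouse, the MT island was the longer one in 55.2% and the WT island in 35.9%, against 55.4% and 34.1% in the rest. The WT list had several islands under 1 MT island in 72 distal regions (8.76% of those shared, against 9.54% in the rest), and the reverse occurred in 35 (4.26% against 5.15%).

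**Figure D5:**
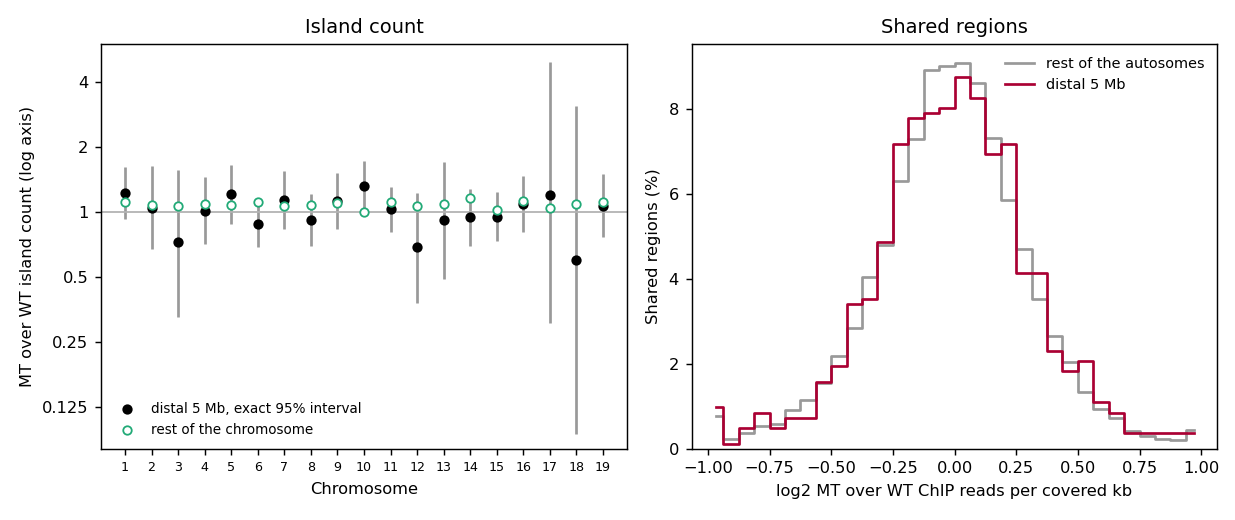
Left, ratio of MT to WT island counts by chromosome on a log axis, in the distal 5 Mb (black, with exact 95% intervals) and in the rest of the chromosome (green). Right, share of shared regions (%) by log2 ratio MT over WT of ChIP reads per covered kb, distal (red) and rest (grey), with values beyond the axis put in the end bins. The distal ratios scatter around 1. Only chromosome 10 lies above it by its interval, which can arise by chance among this many intervals. The curves on the right share their centre, at medians of -0.0060 and -0.011.

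The largest single changes were taken from the 662 distal shared regions with at least 50 ChIP reads in both mice. The largest increase in MT was at chr5:149493601-149496800, where MT had 107 ChIP reads in 1800 bp and WT had 90 in 3200 bp, a log2 ratio of 1.01 with a counting SD of 0.21. The input moved with it there, at a log2 ratio of 0.71. The next were chr11:120300401-120303800, at 0.91, where MT had 98 reads in 2000 bp and WT 85 in 3400 bp, and chr4:154407601-154413000, at 0.88. The chromosome 4 region is the clearer of these, since the islands covered 4800 and 5400 bp and the ChIP reads were 309 in MT and 181 in WT, with an input log2 ratio of -0.20.

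The largest decrease in MT was at chr15:102277201-102281000, at -1.04, where MT had 112 ChIP reads in 3800 bp and WT had 58 in 1000 bp. MT had more reads in this region, so the decrease holds per covered kb and not per region. The others were chr7:140604601-140608600, at -0.84 with 56 against 88 reads in 2400 and 2200 bp, and chr8:129540401-129544200, at -0.83 with 119 against 214 reads in 3600 and 3800 bp. In the chromosome 8 region the limits were nearly equal, and the input log2 ratio was 0.23. With 1 library of each kind these changes have no replicate check.

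Islands found in 1 list alone had distances to the other mouse's islands that did not depart detectably from the rest. The nearest island of the other list lay a median of 7.2 kb away for the 573 distal MT islands of this kind and 8.1 kb for the 474 of WT, against 7.8 and 8.4 kb in the rest. It lay under 5 kb away for 39.1% (35.2 to 43.1) in MT and 38.6% (34.3 to 43.1) in WT, against 38.7% and 37.7%. The MT islands of this kind with the lowest p-values were chr4:153756201-153760800, with 204 ChIP and 66 input reads and a fold of 2.93, chr15:99669801-99676800, with 256 and 104 reads and a fold of 2.33, and chr7:143789801-143798000, with 295 and 130 reads and a fold of 2.15. The nearest WT island lay 9400, 200 and 20600 bp away. The WT islands of this kind were chr3:157664801-157667800, with 106 ChIP and 25 input reads and a fold of 3.85, chr6:144445001-144448600, with 102 and 24 reads and a fold of 3.86, and chr3:157668401-157670800, with 53 and 7 reads and a fold of 6.88. The nearest MT island lay 4000, 7600 and 1000 bp away. The chromosome 3 pair stands side by side in a window with 18 WT islands in all. No read count of the other mouse is given at such a place, so a weaker signal and no signal cannot be told apart.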

How the data were processed

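H4K16ac ChIP-seq of liver was analysed for 1 MT and 1 WT mouse. Per the labels, reads were processed with Bowtie 0.12.7, SICER 1.03 and build mm8. The deposited counts are whole ChIP and input reads per island that the authors obtained after removing duplicate reads, with windows of 200 bp, gaps of up to 400 bp and a false discovery rate of 0.001. The authors' p-value compares ChIP with scaled input reads, and the fold deposited by the authors is a ratio of ChIP to scaled input reads. The lists do not state library totals; distal MT islands held 164162 ChIP and 76954 input reads, and distal WT islands 132013 ChIP and 58988 input reads.

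Distances, densities and overlaps were computed in Python 3.11.15 (scipy 1.17.1, pandas 2.3.3, numpy 2.4.6, matplotlib 3.10.9). Islands overlapping by at least 1 bp were merged into regions. The depth of the genotypes was compared through the input density over covered sequence of shared regions. For ChIP this was multiplied by the MT over WT ratio of the library-size corrections in the fold. Intervals are exact conditional binomial for count ratios, Wilson for shares, order-statistic for medians, and for covered length take each island as 1 Poisson event. The density ratio, the overlap share and the log2 change were also computed on simulated lists. Islands there were placed independently and had equal limits in both genotypes, so clustering and unequal lengths were not covered. The reference of windows that end at an island was not simulated. The regions named are the 3 with the highest fold (at least 20 input reads), the 3 longest and the 3 lowest p-values among islands of 1 list, in each list, the 3 largest changes in each direction among shared regions (at least 50 ChIP reads in both), and the 3 densest and 3 sparsest ends. The windows, rules and alternatives were chosen with earlier results of these data known, and the chromosome 10 and chromosome 14 values of the last Mb were picked after they were seen. Sequences and gene annotation of build mm8 were not used here. The genes at the distal end of chromosome 17 are not reported here.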

Additional observations from a re-analysis of the deposited data

How the results depend on the processing

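Of 74 alternatives, 42 left the value within its 95% interval and 32 moved it. Of the distal over rest density ratios, MT gave 1.58 and WT 1.56 with windows of 2 Mb, 1.18 and 1.21 with windows of 10 Mb, and 1.19 and 1.22 with a fold of at least 2. Without chromosome 17 they were 1.39 and 1.45, and against reference windows that end at an island, an alternative added after seeing the data, 1.06 and 1.11. The covered share ratio was 1.70 in MT and 1.65 in WT with windows of 2 Mb, 1.23 and 1.27 with 10 Mb, and 1.26 in both with a fold of at least 2. The median fold was 1.99 and 2.04 with windows of 2 Mb and 2.18 and 2.27 with islands limited to false discovery rates up to 1e-05. At that limit the median length was 3000 bp in MT and 2600 bp in WT, and with a fold of at least 2 it was 2200 and 1800 bp. The MT over WT count ratio was 0.964 with a fold of at least 2, which turns its direction, and 1.18 with at least 50 ChIP reads. The median log2 change, whose interval contains 0, turned from below to above 0 with islands required to overlap over at least 50% of each, at 0.031, and by at most 0.0046 under 3 further alternatives, and was 0.14 when reads were compared per region instead of per covered kb. The share of overlapping islands was 50.6% in MT and 50.2% in WT with a fold of at least 2, and 40.5% and 42.0% with an overlap of at least 50%. The cause of these changes was not tested.

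No paired analysis was possible because each genotype has 1 mouse and no result comes from a test. The lists hold read counts inside islands alone, so depth outside islands and the distance to the telomere are not known from them. The counting SD of the distal shared regions had a median of 0.21 on the log2 scale.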

Other observations

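The X chromosome was kept out of the comparison. By the same rule, 3 of its 142 MT islands and 5 of its 126 WT islands were distal, which is 0.6 and 1.0 per Mb, against 0.909 and 0.792 per Mb in the rest of that chromosome. The distances between neighbouring islands within the autosomal distal windows had a median of 10.2 kb in MT and 10.8 kb in WT, against 10.6 and 13.2 kb in the rest. Of these distances 34.9% in MT and 32.8% in WT were under 5 kb, against 35.9% and 32.7%.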
